A study of Homo sapiens with 12 samples.

Results

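IL24 and the receptor chains through which it signals, IL20RA, IL20RB and IL22RA1, were read in H460 and A549 cells left untreated or exposed to ISP-I, 4 genes of the 19973 in the table. They were picked by symbol and chosen by their FPKM in the 4 groups, which was already known, so these levels are described and not tested. H460 and A549 are established human non-small cell lung cancer (NSCLC) lines, labelled WT in genotype. The paper states, however, that both lines carry homozygous inactivating mutations of KEAP1. Isovalerylspiramycin I (ISP-I) is a macrolide isolated from the antibiotic carrimycin. In each line, RNA came from 3 non-treated (control) cultures and from 3 cultures exposed for 48 h to 10 µM ISP-I, 12 libraries in all. The controls are labelled non-treated and no vehicle is named for them. All values are FPKM, the reads counted on a gene per kilobase of its exons and scaled to the reads on all listed genes.

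IL-24 is a secreted cytokine of the IL-10 family, first found in melanoma cells as they differentiated and known also as MDA-7. At the cell surface it binds a pair of chains, either IL20RA with IL20RB (the type I receptor, shared with IL-19 and IL-20) or IL22RA1 with IL20RB (the type II receptor, shared with IL-20), and both pairs signal through Janus kinases to STAT3. When it is overexpressed in tumor cells, IL-24 is also known to act inside the cell, through the endoplasmic reticulum stress response, and to cause growth arrest and apoptosis. Skin keratinocytes, monocytes and T cells are usual sources of it, and epithelia are its usual targets.

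The libraries held 14225849 to 17874422 reads on genes. Since every value times gene length was a whole multiple of 1 step per library (tolerance 0.01 read), the reads behind each value were recovered. Libraries are numbered by their place within a group, and nothing tells which culture each came from, so p values measure only the spread between these libraries. In H460 with ISP-I, library 3 stood apart: chi-square per degree of freedom over genes was 58.1 and 98.7 against libraries 1 and 2, and 22.9 between those. Library 3 of the A549 controls did so too, with 28.04 and 32.5 against 3.38. Leaving out each library in turn kept the direction of every ratio of IL24 and its receptor chains that could be computed. Both lines carried epithelial keratins: the summed level of 5 epithelial markers was 356 to 432 FPKM in untreated and 327 to 415 in treated H460, and 924 to 1252 in untreated and 628 to 659 in treated A549. In H460 controls, however, CDH1 had no reads and EPCAM was at 0.0473 FPKM. Markers of usual IL-24 sources were low. CD3E, CD2 and the melanocyte gene TYR had no reads in any library, and PTPRC (CD45) had 13 reads over the 12. The 4 T cell markers summed to 0.138 FPKM at most, the 4 keratinocyte markers to 0.807, the 4 melanocyte markers to 1.19 and the 4 endothelial markers to 0.389. The 4 monocyte and macrophage markers summed to 5.18 to 6.53 FPKM in H460 controls and to 3.198 to 4.36 under ISP-I. In A549 their sum was 1.98 to 2.69 without and 7.06 to 7.64 under ISP-I. Its members went different ways by group means. CD14 was at 5.92 FPKM without and 1.26 under ISP-I in H460, and at 1.07 and 0.144 in A549. ITGAM was at 0.0309 and 2.22 in H460 and at 1.23 and 6.89 in A549, CSF1R was at most 0.381, and CD68 had 4 reads in all. The 4 fibroblast markers summed to 9.63 to 11.1 FPKM in H460 controls and 4.91 to 5.79 under ISP-I. Their sum in A549 was 0.874 to 1.14 without and 1.09 to 1.298 under ISP-I. The part of these differences in the values below was not tested.

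The ligand was close to silent in untreated cells of both lines and abundant after ISP-I. IL24 (ENSG00000162892) lies on the plus strand of chromosome 1, at 206897443 to 206904139 (hg38). In H460 controls it stood at 0.281, 0.233 and 0.203 FPKM, from 8, 7 and 6 reads. In H460 with ISP-I it stood at 118, 101 and 127 FPKM, from 4183, 3317 and 3721 reads. The groups were far from overlapping, and all 3 treated libraries lay close together. The mean went from 0.239 ± 0.0391 to 115 ± 13.3 FPKM (SD, n = 3), which is 482 times as high. The ratio of pooled reads was 481, with an exact (Clopper-Pearson) 95% interval of 315 to 778 that covers counting error only.

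In A549, IL24 had 0, 1 and 0 reads in the controls, so that the only control library above 0 stood at 0.0344 FPKM. A count of 0 in a single control library allows up to 0.107 FPKM (3 reads). With ISP-I the values were 16.3, 15.9 and 17.0 FPKM, from 482, 493 and 483 reads. Again no treated library came near the controls. The mean of 16.4 ± 0.573 FPKM was 1431 times the control mean of 0.0115, a ratio that rests on 1 control read, and the exact 95% interval of the pooled ratio (1417) was 254 to 55998. Without A549 control library 2, which held that read, no ratio can be given.

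The 4 groups ordered as H460 with ISP-I, A549 with ISP-I, H460 control and A549 control, and no pair of neighbours in that order overlapped. Which line had the larger response depended on the scale. The difference in level was 115 FPKM in H460 and 16.4 FPKM in A549, while the ratio was higher in A549, with intervals that overlapped. By its group mean, IL24 ranked 12012 of all listed genes in H460 controls and 291 after ISP-I. In A549 its rank went from 15250 to 2779. On log2(FPKM + 1), the scale used for other genes below, its difference was 6.55 in H460, the 3rd highest of the 13423 genes whose mean reached 0.1 FPKM. In A549 the difference was 4.10, the 4th highest of 13705.

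**Figure D1:**
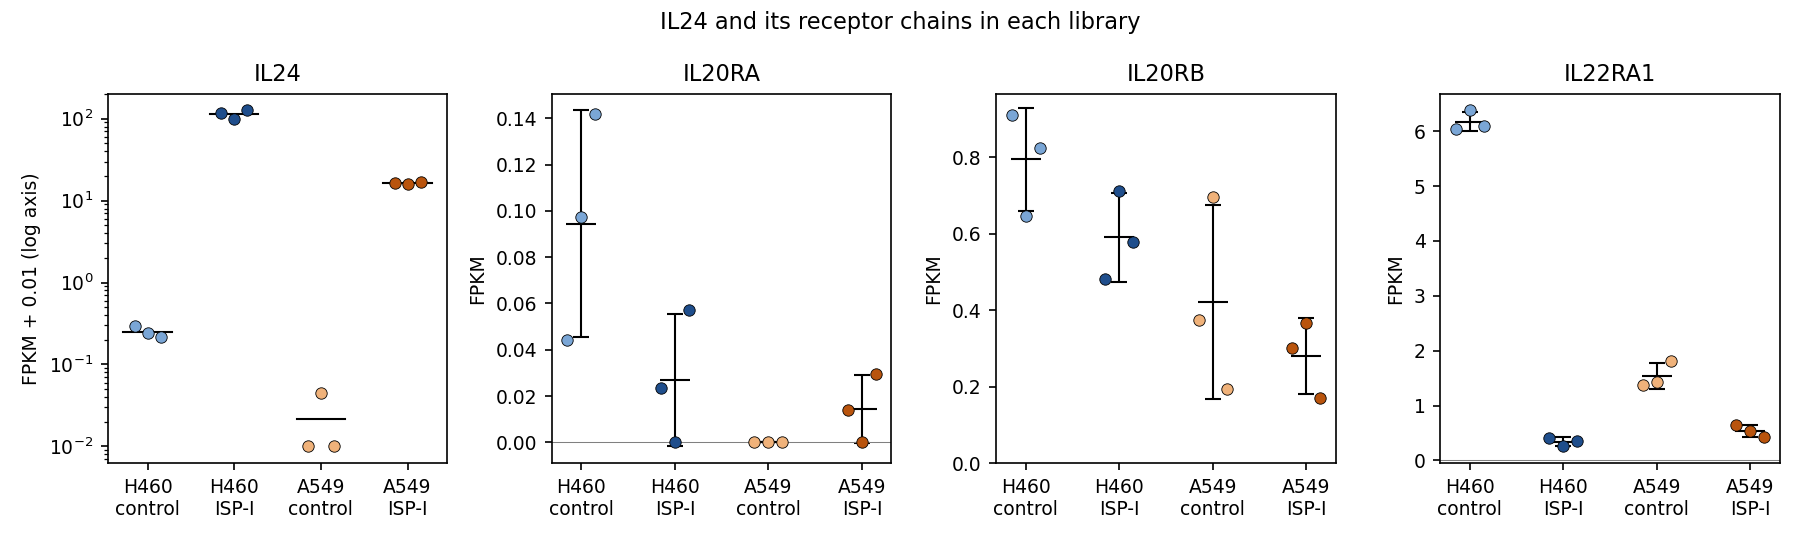
Level of IL24 (FPKM + 0.01, log axis) and of IL20RA, IL20RB and IL22RA1 (FPKM, linear axes) in each of 12 libraries. Points are libraries and lines are group means, with bars of 1 SD for the receptor chains (n = 3). IL24 sits at 101 to 127 FPKM in H460 and 15.9 to 17.0 in A549 after ISP-I, and IL22RA1 in H460 sits at 6.04 to 6.38 FPKM in controls and 0.256 to 0.417 after it.

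The 250 bases before the start of IL24 and of IL22RA1, the genes with the highest and the lowest ratio of the 4 in H460, are shown from the RefSeq promoter table (GRCh38.p14), written 5′ to 3′ on the strand of the gene. IL24 is at chr1:206897193-206897442 (plus strand) and IL22RA1 at chr1:24143141-24143390 (minus strand). Capitals mark matches to the motifs searched on both strands: AP-1 (TGAGTCA, and TGANTCA with a free middle base, which includes it), C/EBP (TTGCNNAA), STAT (TTCNNNGAA), and the TATA elements TATAAA and TATATA.
IL24: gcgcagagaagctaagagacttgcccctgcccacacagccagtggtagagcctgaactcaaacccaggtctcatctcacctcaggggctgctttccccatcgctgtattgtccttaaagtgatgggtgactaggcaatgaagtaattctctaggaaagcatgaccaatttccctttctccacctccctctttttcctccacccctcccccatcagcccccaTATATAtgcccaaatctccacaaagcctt
IL22RA1: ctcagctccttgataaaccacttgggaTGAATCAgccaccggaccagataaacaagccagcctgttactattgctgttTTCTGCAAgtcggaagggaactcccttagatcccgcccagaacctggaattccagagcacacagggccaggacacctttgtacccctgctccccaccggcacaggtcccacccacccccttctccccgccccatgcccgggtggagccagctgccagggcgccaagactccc

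In IL24 the only match was TATATA, 29 to 24 bases before the start, a run that 3.73% of 35116 promoter windows of this length held. IL22RA1 held TGAATCA at 223 to 217 bases before the start, a match to TGANTCA (6.57% of windows) but not to TGAGTCA (4.203%). It also held TTCTGCAA, a C/EBP match on the other strand at 172 to 165 bases (9.05% of windows). The STAT motif (6.57% of windows) was in none of the 5 windows of the 4 genes, and TATAAA (10.7%) was only in the first of the 2 IL20RA windows, 32 to 27 bases before the start. IL20RB held none of these motifs. The RefSeq starts of IL20RA and IL20RB differ from the ends of the gene bodies given below, and their windows lie wholly or partly within those bodies. These matches describe letters only, and a missing match says nothing of a factor.

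The chain specific to the type II receptor had the highest level of the receptor chains in untreated cells of both lines, and it was low after ISP-I. IL22RA1 (ENSG00000142677), the chain that IL-22 also uses, lies on the minus strand of chromosome 1, at 24119771 to 24143140. In H460 controls it stood at 6.04, 6.38 and 6.10 FPKM, from 245, 273 and 256 reads. With ISP-I it stood at 0.417, 0.256 and 0.359 FPKM, from 21, 12 and 15 reads. The highest treated library lay far below the lowest control. The mean went from 6.17 ± 0.180 to 0.344 ± 0.0817 FPKM, a ratio of 0.0557 (pooled reads 0.0559, exact 95% interval 0.0408 to 0.0748).

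In A549, IL22RA1 stood at 1.37, 1.42 and 1.80 FPKM in controls, from 55, 59 and 75 reads. With ISP-I the values were 0.642, 0.543 and 0.421 FPKM, from 27, 24 and 17 reads. These groups did not overlap either. The mean went from 1.53 ± 0.235 to 0.535 ± 0.111 FPKM, a ratio of 0.349 (pooled reads 0.350, exact 95% interval 0.261 to 0.464). Over the 4 groups the order was H460 control, A549 control, A549 with ISP-I and H460 with ISP-I. The last pair was separated by the gap from 0.417 to 0.421 FPKM only, at 12 to 27 reads a library, and could not be told apart at this depth. In RNA from whole cultures, fewer cells with a transcript and less of it per cell cannot be told apart.

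IL20RB (ENSG00000174564), the beta chain that both receptors need, was low throughout. It lies on the plus strand of chromosome 3, at 136946230 to 137011085. In H460 it stood at 0.910, 0.647 and 0.824 FPKM in controls and 0.481, 0.713 and 0.579 with ISP-I. In A549 it stood at 0.374, 0.696 and 0.194 in controls and 0.302, 0.365 and 0.171 with ISP-I. The groups overlapped in both lines, with 21 to 32 reads a library in H460 against 6 to 25 in A549. The means were 0.794 ± 0.134 and 0.591 ± 0.116 FPKM in H460 (ratio 0.744) and 0.421 ± 0.254 and 0.279 ± 0.0989 in A549 (ratio 0.663). Ratios of pooled reads were 0.744 (exact 95% interval 0.535 to 1.03) and 0.669 (0.410 to 1.08), with intervals that cover counting error only. A difference with ISP-I was thus not detectable at this depth in either line. In the order of the 4 levels each group overlapped the next, while both H460 groups lay above A549 with ISP-I without overlap.

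IL20RA (ENSG00000016402), the alpha chain of the type I receptor, was hardly read at all. It lies on the minus strand of chromosome 6, at 136999971 to 137045180. H460 controls held 3, 7 and 10 reads (0.0441, 0.0974 and 0.142 FPKM), and H460 with ISP-I held 2, 0 and 4 (0.0237, 0 and 0.0570 FPKM). These groups overlapped. The ratio of means was 0.285, and without H460 ISP-I library 3 it was 0.125. For pooled reads the ratio was 0.270, with an exact 95% interval of 0.0888 to 0.698 that covers counting error only. In A549 there were no reads in the 3 controls and 1, 0 and 2 with ISP-I, so no fold is given. No reads over those 3 controls allow a level of up to 0.0145 FPKM (3 reads over the group). IL20RA was also under the limit of 0.1 FPKM for the mean in each line, which the other 3 genes passed. IL24 passed it in A549 only through the treated group.

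Since a receptor needs both of its chains, the lower chain of each pair was taken in each library, on the FPKM scale. For the type I pair this was IL20RA in all 12 libraries, at most 0.142 FPKM. For the type II pair in H460 controls the lower chain was IL20RB in all 3 libraries, at 0.647 to 0.910 FPKM. In H460 with ISP-I it was IL22RA1 in all 3, at 0.256 to 0.417, so the order of the chains in FPKM was exchanged. Those libraries held 21, 12 and 15 reads of IL22RA1 and 21, 29 and 21 of IL20RB. In library 1 the order thus came from gene length alone, and counting error in this order was not tested. In A549 the lower chain was IL20RB in each library, at 0.194 to 0.696 FPKM in controls and 0.171 to 0.365 with ISP-I. In H460 the lower type II chain, IL20RB in controls and IL22RA1 with ISP-I, thus did not overlap between the groups (means 0.794 and 0.344 FPKM). In A549, where it was IL20RB in both groups, it did (0.421 and 0.279). In treated H460 the ligand transcript, at 115 FPKM, stood beside 0.344 FPKM of IL22RA1, 0.591 of IL20RB and 0.0269 of IL20RA.

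The exon length of each of the 4 genes in the table equals that of the GENCODE annotation (version 44), from 1979 bases for IL24 to 4730 for IL20RA. Of the IL24 exon bases, 823 (41.6%) are also exon of FCMR, the IgM Fc receptor gene, which runs on the other strand and shares 24.1% of its own 3417 exon bases. The sources give no strand setting for the counting, and the part of shared bases in either gene's value was not tested. IL20RB shares 103 bases (4.22%) with NCK1 and an antisense RNA. IL20RA and IL22RA1 share none.

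The other genes around this cytokine were read as 8 lists of 78 genes, written by role from general knowledge. Earlier results of these data were known when the lists were chosen, so their counts describe the lists and test nothing about them. List genes were tested in each line over all genes with limma on log2(FPKM + 1). A call needed a fold change over 2 and a Benjamini-Hochberg adjusted p under 0.05. In H460, 68 of the list genes were tested and called higher in 23 cases and lower in 7, where 10.5% of all genes were called higher and 15.2% lower. In A549, 13 were higher and 2 lower of 69, against 4.2% and 3.51% of all genes. Of them, 10 were higher in both lines and none lower in both or called in opposite directions. The same overlap was not counted over all genes, so it cannot be called particular to these lists. The median change of the list genes was 0.26 in H460 (all genes -0.15) and 0.10 in A549 (all genes 0.02). Scaling by median-of-ratios moved the H460 median of all genes by 0.16 and gave 29 list genes higher and 4 lower there.

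The other IL-10 family ligands were low or without reads, and IL20 and IFNL1 were the highest of them. IL20 had no reads in any control. It had 11, 8 and 17 reads in H460 with ISP-I (0.393, 0.307 and 0.731 FPKM) and 10, 7 and 6 in A549 (0.427, 0.285 and 0.267 FPKM). The groups did not overlap in either line. On the log2 scale the change of 0.55 in H460 (SE 0.0999, adjusted p 0.0012, limma) and 0.41 in A549 (adjusted p 0.000684) did not reach the fold required. On log2(FPKM + 1) no gene with both group means under 1 FPKM can reach it, so no call was possible for IL20 or IFNL1. IL19 had 5, 6 and 3 reads in H460 with ISP-I and none in the other 9 libraries. IL10 had 1 read in all, and IL22, IL26, IFNL2 and IFNL3 had none. IFNL1, a type III interferon, had 0 to 1 read a library in H460 controls and 4 to 11 with ISP-I (means 0.0582 and 0.566 FPKM), with no overlap and no call (log2 change 0.55, limma adjusted p 0.00671). In A549 it had 0 to 3 and 1 to 5 reads a library (0.118 and 0.311 FPKM), and the groups overlapped.

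None of the 9 other class II cytokine receptor chains, the family to which the IL-24 receptors belong, was called in either line. On log2(FPKM + 1), a call was out of reach where both group means were at or under about 1 FPKM, as for IFNLR1 and IL10RA. The median change of the chains tested was -0.65 in H460 (5 genes) and -0.15 in A549 (6 genes). IFNLR1, the type III interferon receptor chain, stood at 1.001 ± 0.130 FPKM in H460 controls and 0.149 ± 0.0345 with ISP-I, with no overlap and a log2 change of -0.80 (limma adjusted p 2.5e-05). In A549 it stood at 0.524 ± 0.0363 and 0.273 ± 0.0564. IL10RA, the IL-10 receptor chain, had 0 to 1 read in H460 controls and 17 to 25 with ISP-I, and 0 to 6 and 26 to 28 in A549. The interferon receptor chains IFNAR1 (6.94 and 3.98 FPKM in H460), IFNGR1 (5.86 and 3.37) and IFNGR2 (9.57 and 8.77) were present in all groups, as was tissue factor, F3 (4.50 and 3.09). IL10RB and IFNAR2 had 10 to 18 and 4 to 5 reads a group in H460. An annotated read-through gene that spans both shares 21.6% of the exon bases of IL10RB and 14.7% of those of IFNAR2, and the part of this in their low values was not tested. IL22RA2, a soluble decoy for IL-22, had 2 reads in all.

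Downstream of the receptors, 3 of 11 Janus kinases and STATs were called lower in H460, as were 15.2% of all genes, and none was called in A549. TYK2, a kinase paired with this receptor family, stood at 14.98, 17.6 and 17.5 FPKM in H460 controls and 4.52, 4.68 and 4.21 with ISP-I (log2 fold change -1.69, SE 0.113, limma adjusted p 4.11e-06). STAT6, the IL-4 and IL-13 signal transducer, fell from 47.2 ± 2.97 to 15.9 ± 0.857 FPKM (-1.51, adjusted p 6.59e-06), and STAT2, of the interferon pathway, from 5.13 ± 0.243 to 1.71 ± 0.0517 (-1.18, adjusted p 1.49e-05). With median-of-ratios scaling STAT2 missed the fold required (-0.99). JAK1, which serves IL-20 and IL-22 receptors, was at 9.76 ± 0.651 and 9.78 ± 2.35 FPKM in H460, and STAT3 at 8.22 ± 0.680 and 7.001 ± 0.512. In A549, JAK1 was at 19.8 ± 2.18 and 19.2 ± 0.635 and STAT3 at 26.9 ± 0.722 and 17.8 ± 0.824 FPKM.

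Among 9 brakes on this pathway, H460 had 2 called higher and 1 lower (10.5% and 15.2% of all genes), and A549 had 1 of each (4.2% and 3.51%). SOCS proteins are made in response to STAT activity and shut it off. SOCS2 rose in H460 from 1.41 ± 0.259 to 10.0 ± 0.749 FPKM (log2 fold change 2.19, SE 0.123, limma adjusted p 1.75e-06), and SOCS1 from 0.202 ± 0.0827 to 1.72 ± 0.587 (1.16, adjusted p 0.000204). PIAS3, an inhibitor of STAT3, fell there from 14.9 ± 1.41 to 6.11 ± 0.872 (-1.17, adjusted p 7.24e-05) and missed the fold required with median-of-ratios scaling (-0.92). In A549, SOCS3 rose from 9.43 ± 0.518 to 24.3 ± 1.07 FPKM (1.28, adjusted p 3.95e-06), and the phosphatase PTPN6 fell from 5.41 ± 0.434 to 1.81 ± 0.255 (-1.19, adjusted p 2.45e-05).

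Of 10 STAT3 target genes, 6 were higher (10.5% of all genes) and none lower in H460, while A549 had none higher and 1 lower (3.51%). Their median change was 1.18 in H460 and 0.24 in A549. MCL1, a survival protein of the BCL2 family, rose in H460 from 109 ± 4.78 to 464 ± 18.0 FPKM (log2 fold change 2.08, SE 0.131, limma adjusted p 3.16e-06). JUNB, a subunit of AP-1, rose from 38.2 ± 2.83 to 159 ± 83.7 (1.92, adjusted p 0.000526), and HIF1A, the hypoxia factor, from 21.9 ± 4.14 to 66.7 ± 27.4 (1.499, adjusted p 0.00154). The others that rose there were VEGFA (1.28), MYC (1.26) and BCL6 (1.10). BCL3, a partner of NF-kB, fell in A549 from 19.3 ± 0.816 to 6.40 ± 0.938 (-1.46, adjusted p 1.16e-05). The interaction was called positive for 4 of the 10 and negative for 1, BCL2L1 (-1.44), where 5.93% and 10.1% of 13953 genes were called positive and negative (H460 minus A549, more than 1 on the log2 scale).

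Genes linked to the action of IL-24 inside the cell gave 6 higher and 2 lower of 14 in H460 (10.5% and 15.2% of all genes). In A549 they gave 5 higher and none lower (4.2% and 3.51%). The members called in both lines belong to the stress response and the GADD45 family, which other stresses raise as well. PPP1R15A (GADD34), which reverses the block of translation under stress, stood at 8.32, 9.69 and 10.3 FPKM in H460 controls and 788, 721 and 1044 with ISP-I (log2 fold change 6.34, SE 0.168, limma adjusted p 9.48e-08). In A549 it stood at 27.1, 26.8 and 32.2 and at 380, 360 and 398 (3.68, adjusted p 1.09e-07). DDIT3 (CHOP), a death-promoting factor of the unfolded protein response, stood at 1.12, 1.66 and 1.95 FPKM in H460 controls and 20.3, 17.7 and 49.9 with ISP-I (3.42, adjusted p 3.69e-05). In A549 it rose from 0.737 ± 0.107 to 13.0 ± 0.624 (3.01, adjusted p 2.07e-07). GADD45G, a growth arrest gene, rose from 2.86 ± 0.209 to 30.9 ± 6.76 in H460 (3.03, adjusted p 1.21e-06). In A549 it had 0, 0 and 1 reads in controls and 20, 24 and 25 with ISP-I (1.09, adjusted p 8.25e-06). GADD45A was also higher in both (3.37 and 2.54 on the log2 scale), GADD45B (3.30) and EIF2AK3 (1.22) in the H460 calls and ATF4 (1.11) in those of A549.

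Of the effectors that fell, 1 is given here and was named after its values were seen. EIF2AK2 (PKR), a kinase that blocks translation, through which IL-24 is known to act inside the cell, fell in H460 from 13.0 ± 1.32 to 3.10 ± 0.754 FPKM (log2 fold change -1.78, SE 0.160, limma adjusted p 1.93e-05) and stood at 11.7 ± 2.25 and 9.32 ± 0.112 in A549. Its response differed between the lines (interaction -1.5005, adjusted p 0.000104).

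The promoter of IL24 is known to respond to AP-1 and C/EBP factors. Of 10 genes for these, 7 were higher in H460 (10.5% of all genes) and 6 in A549 (4.2%), with none lower. Their median change was 2.18 in H460 and 1.24 in A549, the highest of the 8 lists in each line. The lists were chosen with earlier results known, so this order is a description only. FOS stood at 1.20, 1.22 and 1.96 FPKM in H460 controls and 85.3, 85.1 and 120.5 with ISP-I (log2 fold change 5.31, SE 0.179, limma adjusted p 2.23e-07), and in A549 at 1.30, 1.41 and 1.08 and at 5.02, 5.68 and 6.63 (1.58, adjusted p 1.1e-05). JUN, its partner in AP-1, rose from 11.3 ± 0.731 to 387 ± 27.9 in H460 (4.97) and from 36.6 ± 1.64 to 108 ± 5.04 in A549 (1.54). FOSB rose by 4.66 and 1.97 and FOSL1 by 3.62 and 1.45 in the same order. FOSL2 (2.45) and JUNB were called in H460, and CEBPA (1.03) in A549. CEBPB stood at 53.8, 58.9 and 67.3 FPKM in H460 controls and at 206, 129 and 282 with ISP-I (1.69, SE 0.260, adjusted p 0.000463). In A549 it went from 27.9 ± 2.54 to 133 ± 1.38 (2.21, adjusted p 5.65e-07). All these treated groups lay above their controls without overlap. The interaction was called positive for 7 of the 10 genes (5.93% of all genes) and negative for none (10.1% of all genes). It was 3.73 for FOS (limma adjusted p 1.06e-07) and -0.52 for CEBPB (adjusted p 0.162).

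Proteins that bind AU-rich elements set the lifetime of many cytokine mRNAs. Of 8 such genes, H460 had 3 called higher and 1 lower (10.5% and 15.2% of all genes), and A549 had 1 higher (4.2%). ZFP36 (tristetraprolin), which speeds decay, rose from 18.3 ± 1.98 to 77.95 ± 14.3 FPKM in H460 (log2 fold change 2.02, SE 0.155, limma adjusted p 8.35e-06) and from 9.88 ± 0.570 to 25.3 ± 2.22 in A549 (1.27, adjusted p 8.34e-06). ZFP36L1, of the same family, rose in H460 from 8.20 ± 0.444 to 26.1 ± 1.97 (1.55), and ZFP36L2 rose by 1.08 on the log2 scale. ELAVL1 (HuR), which stabilizes its targets, fell in H460 from 25.1 ± 1.27 to 11.0 ± 1.30 (-1.12, adjusted p 5.28e-05) and missed the fold required with median-of-ratios scaling (-0.86).

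**Figure D2:**
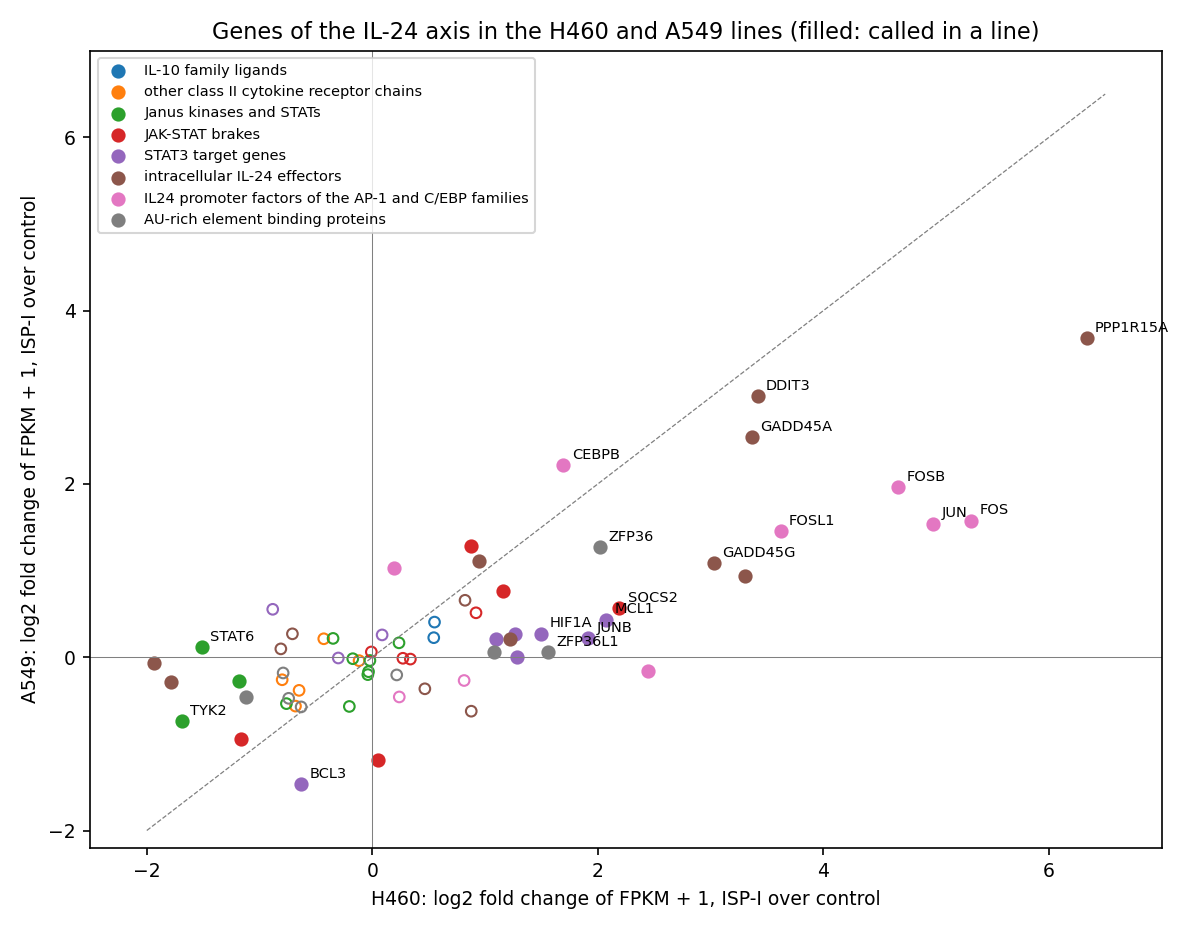
Log2 fold change of FPKM + 1 (ISP-I over control) in H460 (horizontal) and A549 (vertical) for the list genes tested in each line, coloured by list. Filled points were called in at least 1 line, and the dashed line marks equal change. FOS lies far to the right of the dashed line (5.31 against 1.58) and CEBPB to its left (1.69 against 2.21).

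IL24 sits in a cluster of IL-10 family genes, with 14 listed genes within 300 kb. Of these, 2 of 8 tested were higher in H460 (10.5% of all genes) and 3 of 10 in A549 (4.2%), with none lower. The overlapping gene FCMR rose from 4, 5 and 10 reads to 226, 166 and 226 in H460 (0.125 ± 0.0626 to 3.69 ± 0.770 FPKM, log2 fold change 2.05, limma adjusted p 3.1e-06). In A549 it rose from 16, 12 and 31 reads to 178, 163 and 188 (1.68, adjusted p 1.17e-05). FCMR thus moved with IL24, and the exons shared by both genes apply to its values too. DYRK3, a kinase gene 213024 bases before IL24, rose from 4.27 ± 0.604 to 18.0 ± 1.96 FPKM in H460 (1.85, adjusted p 6.13e-06) and from 2.15 ± 0.232 to 9.38 ± 0.146 in A549 (1.72, adjusted p 1.91e-06). C1orf116 rose in A549 (3.02 ± 0.424 to 8.703 ± 0.393 FPKM, log2 fold change 1.28) and stood at 0.0496 ± 0.0334 and 0.174 ± 0.060 in H460, and its response differed between the lines (interaction -1.12, adjusted p 1.13e-05). PIGR and FCAMR, the next genes after IL24 and FCMR, stayed near 0, with at most 6 and 4 reads a group. Further out, EIF2D, MAPKAPK2, PFKFB2 and YOD1 were expressed in all groups, at 1.44 to 29.6 FPKM, and were not called in either line.

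**Figure D3:**
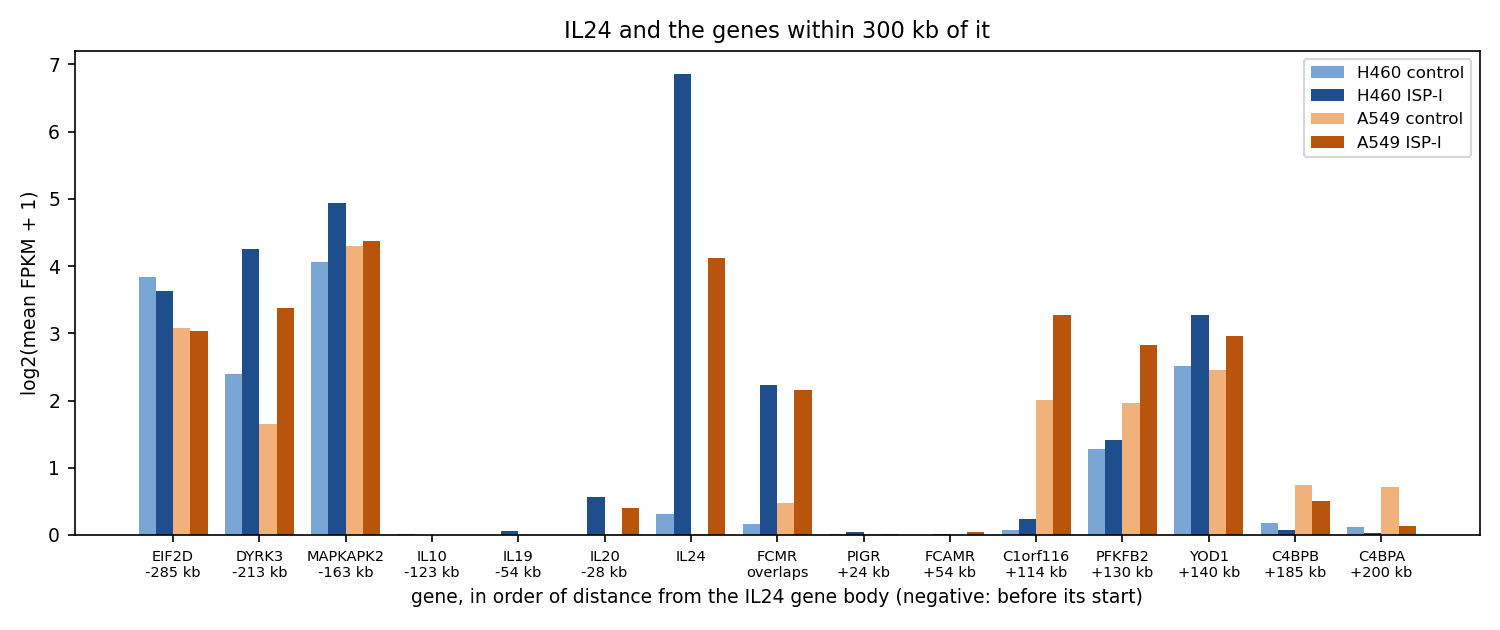
Level of IL24 and of the 14 listed genes within 300 kb, as log2(mean FPKM + 1) of 3 libraries in each of 4 groups, ordered by distance from the IL24 gene body in kb. IL24 reaches 115 FPKM in H460 with ISP-I, while IL10, IL19, PIGR and FCAMR stay near 0 in all groups.

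Near IL22RA1, 8 of 10 listed genes were tested in H460, with 1 higher and 2 lower (10.5% and 15.2% of all genes). In A549, 9 were tested, with 1 higher and 1 lower (4.2% and 3.51%). FUCA1, a lysosomal fucosidase, fell in both lines (log2 fold change -1.89 and -1.10). NIPAL3 fell in H460 (-1.32, adjusted p 3.81e-06). The closest listed genes on either side of IL22RA1 were MYOM3, at 7636 bases, and IFNLR1, at 11028 bases. Neither was called, for which their levels were too low on the log2(FPKM + 1) scale, and both had lower means with ISP-I. MYOM3 stood at 0.383 ± 0.0316 and 0.086 ± 0.0322 FPKM in H460 and at 0.974 ± 0.136 and 0.325 ± 0.0558 in A549. None of 3 genes near IL20RB was called. Near IL20RA, 3 of 5 listed genes were tested. Of these only MAP3K5 was called, lower in H460 (-1.35, limma adjusted p 4.71e-05), as were 15.2% of all genes.

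The genes whose levels followed those of IL24 most closely were sought among the 10593 genes whose mean reached 1 FPKM, by Pearson correlation of log2(FPKM + 1) over the 12 libraries. The libraries form 4 groups, so the values describe a shared pattern over groups and carry no p. ARC came first (r = 0.999), at 0.441, 0.594 and 0.740 FPKM in H460 controls and 116, 103 and 145 with ISP-I, and at 0.339 to 0.386 and 17.3 to 18.5 in A549. GEM (0.998), HMOX1 (0.998), BHLHA15 (0.998) and CYP1A1 (0.996) followed, and then SNX8, ANXA5, RP9, UPP1 and NEURL3 (0.993 to 0.995). NEURL3 was listed at 0 in H460 controls and had a mean of 24.5 FPKM with ISP-I. SNX8, ANXA5, RP9 and UPP1 kept the pattern at much higher control levels, with ANXA5 at 111 and 468 FPKM in H460 and 112 and 288 in A549. The genes most like IL22RA1 were TNS2 (0.995), ADIPOR1 (0.994) and TRMT2B (0.993). TNS2 stood at 17.2 and 1.98 FPKM in H460 and 5.20 and 2.25 in A549 (group means). For IL20RB (KCTD3 first, 0.910) and IL20RA (TRUB2 first, 0.947) the reads were too few for such a ranking to be read.

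**Figure D4:**
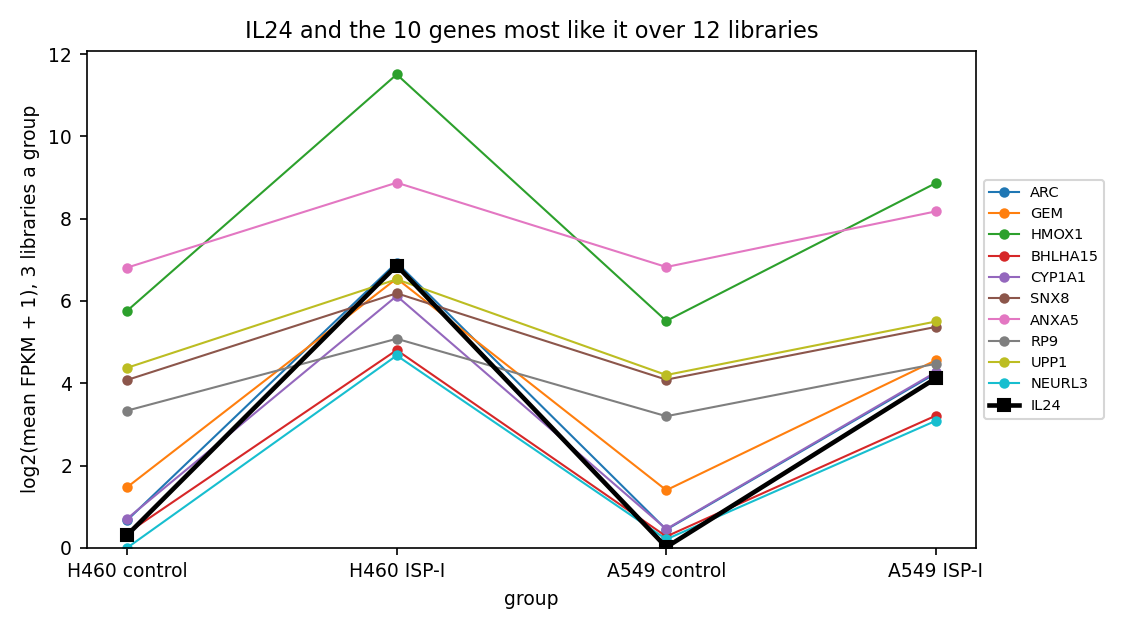
Level of IL24 (black squares) and of the 10 genes most like it over 12 libraries, as log2(mean FPKM + 1) of 3 libraries in each of 4 groups. Each line is high with ISP-I, more so in H460 than in A549, and ARC nearly coincides with IL24 in the treated groups (121 and 115 FPKM in H460, 17.9 and 16.4 in A549).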

How the data were processed

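RNA was sequenced from 12 cultures. Per the paper's methods and the submitters' processing notes, the authors used FastQC to filter paired-end reads, HISAT2 for mapping (hg38) and HTSeq 0.9.1 for gene counts, and deposited the values as FPKM. Annotation version and strand setting are not given in the sources used here. Of the lines of the table, 4 were fragments of an annotation cell and were left out. Gene length is listed in bases. Reads were recovered from FPKM times length, and depth was 14225849 to 17874422 reads.

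Per line, limma 3.58.1 (R 4.3.3, mean-variance trend) compared log2(FPKM + 1) between the 3 treated and 3 control libraries over all genes whose mean reached 0.1 FPKM, with Benjamini-Hochberg adjustment. The difference between lines was the interaction over 12 libraries. A pseudocount of 1 understates the change of low genes. The fit was tested on simulated data, with the same dispersion for every gene and changes placed only in better expressed genes. That test does not cover changes in low genes or libraries that stand apart. Tables were handled in Python 3.11.15.

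Members, lists and rules were chosen with earlier results of these data known. From each list, genes called in both lines and the 3 largest changes per line were named, of ligands and receptor chains every gene, of neighbours within 300 kb those called, and the 10 genes most like IL24 and 3 most like each receptor chain. MYOM3 and the further genes given with counts were named after their values were seen. Some genes that met these rules are not reported here. Deposited GO and KEGG columns were not used. Alternatives tried were pseudocount 0.1, a floor of 1 FPKM on the mean, no floor, median-of-ratios scaling, limma voom on recovered reads, and leaving out each library.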

Additional observations from a re-analysis of the deposited data

Results flagged for a closer look

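The response to ISP-I differed between H460 and A549 (interaction over 12 libraries, limma with Benjamini-Hochberg adjusted p under 0.05, more than 1 on the log2 scale) in 15 of the 31 genes named from the lists and neighbours. Values are H460 minus A549, relative to a median of -0.16 over all genes, of which 5.93% were called positive and 10.1% negative. The 31 genes were named because they were called in a line, so their share cannot be compared with that of all genes. The difference was positive for 12 of the 15. Among AP-1 genes it was 3.73 for FOS, 3.43 for JUN, 2.70 for FOSB, 2.17 for FOSL1 and 1.70 for JUNB. Among stress and growth arrest genes it was 2.66 for PPP1R15A and 1.94 for GADD45G, and the survival gene MCL1 had 1.64. The STAT brake SOCS2 had 1.63 and the phosphatase PTPN6 1.24, the latter from a fall in A549. The mRNA decay gene ZFP36L1 had 1.4965 and HIF1A 1.23 (adjusted p 0.0172). The difference was negative for 3 genes: -1.63 for STAT6, which fell in H460, -1.22 for MAP3K5, near IL20RA, which also fell there, and -1.12 for C1orf116, near IL24, which rose in A549. For IL24 and its receptor chains no difference between the lines was tested.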

How the results depend on the processing

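No paired analysis was possible because the columns of the table carry no replicate number that matches the labels of both groups. The total of list genes called stayed within 1.5 times under each alternative: 29 to 37 in H460 (30 as reported), 14 to 20 in A549 (15) and 23 to 30 for the difference between the lines (23). Genes called lower moved more. In H460 these were 11 with a pseudocount of 0.1, 11 with voom and 4 with median-of-ratios scaling, against 7. In A549 they were 4 with a pseudocount of 0.1 and 5 with voom, against 2. Negative differences between the lines numbered 9 with a pseudocount of 0.1 and 9 with voom, against 4. The cause was not tested. With each library left out in turn, 30 to 32 list genes were called in H460 (23 to 25 higher, 7 to 8 lower), 14 to 15 in A549 (12 to 13 higher, 2 lower each time) and 22 to 24 differences (17 to 19 positive, 4 to 5 negative). Of the named genes, STAT2, PIAS3 and ELAVL1 lost their call in H460 with median-of-ratios scaling. With a floor of 1 FPKM on the mean, SOCS1 in H460 and GADD45G in A549 were no longer tested. No call was reversed.

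The ratio of IL24 means in H460 was 586 with median-of-ratios scaling and 448 to 528 without 1 library. In A549 it was 1411 with that scaling and 954 to 1454 without 1 library, with no value without control library 2. The ratio of IL22RA1 was 0.0498 to 0.0628 in H460 and 0.314 to 0.386 in A549 without 1 library. That of IL20RB was 0.668 to 0.814 and 0.522 to 0.984, and that of IL20RA in H460 0.125 to 0.427. Depth limits what can be said of IL20RA and IL20RB, with 0 to 10 and 6 to 32 reads a library.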
